A study of Mus musculus with 42 samples.

Results

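The trNK-D and trNK-V subsets of uterine tissue-resident NK cells at gd8.5 were compared, as 2 sorted libraries of each, 4 of the 42 samples of the series. The libraries were chosen by their labels: trNK-D cells were sorted as CD55int 4-1BBint and trNK-V cells as CD55low 4-1BBlow, both within live CD45+ NK1.1+ NKp46+ CD49a+ CXCR6- cells of the uterus. The 2 libraries of trNK-T cells, the CD55 and 4-1BB high subset of the same experiment, served for the estimate of the spread and are given beside them as levels. All donors were wild-type, untreated C57BL/6 females, 8 to 12 weeks old and pregnant for 8.5 days after mating, and no group carried an altered allele. How many mice gave each library, and whether a replicate number marks the same mice in each subset, is not given in the sources used here, so the p-values measure the spread between these libraries, which may be technical.

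Tissue-resident NK cells of the uterus settle in the decidua, the uterine lining that forms around the implanted embryo, and are known for granules filled with perforin and granzymes, for secreted factors and for a part in the remodelling of the maternal arteries. Granzymes are serine proteases that leave the granule together with perforin, which opens the membrane of the target cell. NK cells read their surroundings through inhibitory and activating receptors of the Ly49 (Klra), NKG2 (Klrc, Klrk1) and natural cytotoxicity families. In the study's order of subsets, trNK-V stands at the start, trNK-D between and trNK-T at the end of a course of differentiation, and the comparison of trNK-D with trNK-V therefore addresses its early part.

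Each library held 11862089 to 20786471 counts in genes, of which at least 93.8% lay in protein-coding genes. Levels are given as RPKM, the counts of a gene scaled to the total of its library and to the length of its exons, with replicate 1 before replicate 2 of a subset. Of 54446 annotated genes, 4682 had an RPKM above 10 in both libraries of at least 1 of the 3 subsets and were tested, 293 of them through trNK-T alone. The genes that define the sorted cells were found in every library: Ncr1 (NKp46) was at 1022 and 960.1 RPKM in trNK-V and 836 and 748 in trNK-D, Klrb1c (NK1.1) at 288 and 367 RPKM in trNK-V and 283 and 186 in trNK-D, Eomes, the transcription factor of NK cells, at 47.9 and 44.7 RPKM in trNK-V and 35.6 and 29.1 in trNK-D, and Itga1 (CD49a) at 21 and 15.9 RPKM in trNK-V and 18.4 and 15.9 in trNK-D. In trNK-D replicate 2, 3.24% of the counts were of immunoglobulin genes, against at most 0.0659% in the other libraries, and the calls and the list medians given for NK cell genes are repeated without it. Cxcr6, which the sort was to leave out, was at 4.5 and 33.8 RPKM in trNK-V and 0 and 0.579 in trNK-D.

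The transcripts of the gating markers followed the sort, which is a check of the labels and no finding. Cd55 was at 6.44 and 19.4 RPKM in the trNK-V libraries, 52.9 and 72.6 in trNK-D and 179 and 214 in trNK-T, and Tnfrsf9, which encodes 4-1BB, at 200.5 and 138 RPKM in trNK-V, 465 and 507 in trNK-D and 1172 and 1357 in trNK-T. For both genes the 3 subsets did not overlap. On the first principal component of the tested genes, which held 70.3% of the variance, trNK-V stood at -33.5 and -36.6, trNK-D at -12.1 and 4.18, and trNK-T at 32.1 and 46. The 2 trNK-D libraries thus lay between the other subsets and apart from each other. Spearman's rho over the tested genes was 0.914 between the trNK-D libraries, 0.912 between the trNK-V libraries, 0.910 between trNK-D replicate 1 and trNK-V replicate 1 and 0.915 between trNK-D replicate 2 and trNK-T replicate 1, given as descriptions across genes. Each trNK-D library was thus about as close to a library of another subset as to its own replicate. Between the trNK-V replicates 6.39% of the tested genes differed by over 2-fold, and between the trNK-D replicates 5.32%.

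**Figure D1:**
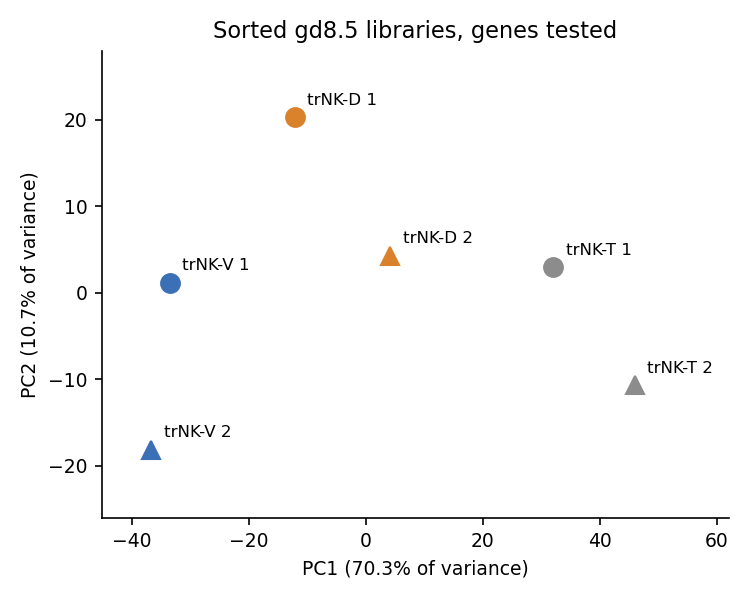
The 6 sorted gd8.5 libraries on the first and second principal components (arbitrary units, with the percent of variance on each axis) of log2(RPKM + 1) over 4682 genes, coloured by subset with the replicate as the marker. The trNK-D libraries lie between trNK-V and trNK-T on the first component, at -12.1 and 4.18.

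Between trNK-D and trNK-V, 12 genes were higher and 3 were lower in trNK-D, where a call needs over 2-fold change and a Benjamini-Hochberg adjusted p under 0.05 (edgeR quasi-likelihood test, 4682 genes). These are 0.256% and 0.0641% of the genes tested. Among those that rose, Zbtb32, AA467197, Anxa3, Dixdc1 and P2ry14 did not exceed 10 RPKM in both trNK-V libraries. They passed the filter only through trNK-D or trNK-T, where they were higher, so their calls are not independent of the filter. The genes that rose encode granzymes (Gzmc, Gzme), the secreted protein osteopontin (Spp1), a metallothionein (Mt1), a transcription factor (Zbtb32), an actin-capping protein (Capg), an annexin (Anxa3), a glutaredoxin (Glrx) and a nucleotide sugar receptor (P2ry14), and include Epdr1, Dixdc1 and AA467197. The genes that fell encode the paired receptors NKG2A (Klrc1) and NKG2C (Klrc2), and Fam189b. None of the 15 belongs to the lists of other cell types, immunoglobulin or T cell receptor segments. Without adjustment, 445 genes were higher and 495 lower at p below 0.05, and for 26.8% of all tested genes both trNK-D libraries lay above both trNK-V libraries, for 27.0% below.

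Leaving out a single library ended most of these calls. Without trNK-V replicate 1 no gene was called (488 higher and 437 lower at an unadjusted p below 0.05, edgeR). Of the 15 genes, Zbtb32 alone was still called without trNK-V replicate 2 or without trNK-D replicate 2. Without trNK-D replicate 1 there were 5 left (Dixdc1, Gzmc, Gzme, Spp1 and Zbtb32), and without either trNK-T library 5 (Gzmc, Gzme, Mt1, Spp1 and Zbtb32). In all of these fits the 15 genes kept their direction. The filter on low values and the tool also moved the calls. With edgeR's filterByExpr filter Zbtb32 alone of the 15 was still called, with RPKM above 1 there were 10 left and with only the trNK-D and trNK-V libraries 5 (Gzmc, Gzme, Mt1, Spp1 and Zbtb32), in each case without a lower gene. DESeq2 called 95 genes higher and 93 lower on the same counts, and all 15 were among them.

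The sequence before the start of a gene is shown for Gzmc, Gzme and Mt1, since the granzymes lie in 1 gene cluster and both rose, and since Mt1 is the textbook target of a metal-sensing factor. The windows run from 250 bases before to 50 bases after the annotated start, on the minus strand of chromosome 14 for the granzymes and the plus strand of chromosome 8 for Mt1, from RefSeq on GRCm38.p6, which held a window for 14 of the 15 genes. Capitals in the granzyme windows mark the longest run that both share, 44 bases across the start, which 2 of 32851 windows hold, those of Gzmc and Gzme. The run was defined from these 2 windows and then searched letter by letter, so its rarity is no finding. The 2 windows are 86.7% identical over their aligned bases. Windows of the other granzymes were not aligned, so the likeness is not shown to be particular to this pair.
Gzmc, chr14:56234608-56234907: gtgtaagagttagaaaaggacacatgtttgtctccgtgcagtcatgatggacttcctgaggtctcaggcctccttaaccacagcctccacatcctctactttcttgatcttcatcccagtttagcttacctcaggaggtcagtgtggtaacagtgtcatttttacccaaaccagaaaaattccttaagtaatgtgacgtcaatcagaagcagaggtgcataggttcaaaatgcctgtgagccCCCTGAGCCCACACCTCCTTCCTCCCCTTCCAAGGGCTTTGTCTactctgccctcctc
Gzme, chr14:56120576-56120875: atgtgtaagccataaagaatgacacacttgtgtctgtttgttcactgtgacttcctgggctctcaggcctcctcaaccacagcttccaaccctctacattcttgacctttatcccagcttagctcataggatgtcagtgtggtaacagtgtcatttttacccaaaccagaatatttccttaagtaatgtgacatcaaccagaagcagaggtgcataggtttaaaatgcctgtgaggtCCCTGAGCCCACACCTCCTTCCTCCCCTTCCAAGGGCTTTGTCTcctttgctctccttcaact
Capitals in the Mt1 window mark the core of the metal response element, searched as TGCACNC or TGCGCNC on both strands.
Mt1, chr8:94178839-94179138: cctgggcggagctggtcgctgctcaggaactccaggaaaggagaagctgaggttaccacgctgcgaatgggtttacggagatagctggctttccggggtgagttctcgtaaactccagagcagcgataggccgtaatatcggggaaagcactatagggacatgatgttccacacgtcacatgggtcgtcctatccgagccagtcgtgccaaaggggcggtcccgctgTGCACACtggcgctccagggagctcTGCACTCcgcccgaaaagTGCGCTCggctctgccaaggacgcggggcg
The Mt1 window held 3 such cores, starting 23 bases before and 2 and 20 bases after the annotated start. Of all 32851 windows, 25.7% held at least 1 core and 1.97% held 3 or more. A core was also present in at least 1 window of Zbtb32, AA467197, Dixdc1, P2ry14 and Glrx. The STAT-type motif TTCNNNGAA, which 8.30% of all windows hold, was in no window of the 14 genes. The AP-1 motif TGANTCA, in 7.81% of all windows, was in at least 1 window of AA467197, P2ry14, Glrx and Klrc2. The shares are per window, whereas P2ry14 had 4 windows and Zbtb32, Dixdc1, Glrx and Klrc2 had 2 each, some of them overlapping. The genes named therefore cannot be set against these shares. These are matches of letters and not sites of binding.

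With Spp1, Gzmc was the most abundant transcript that rose, and the granzyme Gzme rose beside it. Gzmc (chr14:56231441-56234656) was at 812.4 and 699 RPKM in the trNK-V libraries, 4347 and 6746 in trNK-D and 15668 and 11339 in trNK-T. Both trNK-D libraries lay far above trNK-V and below trNK-T. Its log2 fold change in trNK-D over trNK-V was 2.89 ± 0.28 (SE, n = 2 per group, edgeR adjusted p = 0.0242), a 7.42-fold rise. Gzme (chr14:56117626-56120625) was at 46.5 and 65.5 RPKM in trNK-V, 353 and 325 in trNK-D and 3503 and 4379 in trNK-T, with a log2 fold change of 2.61 ± 0.23 (edgeR adjusted p = 0.0217). In Gzme, trNK-D had covered 42.5% of the log2 difference between trNK-V and trNK-T, against 69.4% in Gzmc. The reading frames of Gzmd and Gzme are 94.8% identical and those of Gzme and Gzmg 90.1%, whereas Gzmc shares at most 78.0% with any of the 6 neighbours compared, so counts of Gzme may hold reads of Gzmd and Gzmg.

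Of the other granzymes none passed the test. Gzmb, the main granzyme of cytotoxic lymphocytes, was at 1388 and 1845 RPKM in trNK-V and 4712 and 7895 in trNK-D, without overlap (log2 fold change 1.98 ± 0.34, adjusted p = 0.0911). Gzma was at 1712 and 1694 in trNK-V and at 1261 and 4995 in trNK-D, so that trNK-D replicate 1 lay below and replicate 2 above trNK-V. Gzmd was at 7.46 and 147 RPKM in trNK-V and 733 and 464 in trNK-D, Gzmf at 0.353 and 27.7 RPKM in trNK-V and 402 and 529 in trNK-D, and Gzmg at 0.285 and 78.7 RPKM in trNK-V and 38.3 and 22.9 in trNK-D. For these 3 genes the trNK-V replicates stood far apart, with replicate 2 the higher, and in trNK-T they were at 1579.6 RPKM or more. Ctsg, listed with the granzymes, had 0 counts in trNK-V and trNK-D.

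Perforin and other granule proteins differed less. Prf1, which encodes perforin, was at 266 and 226 RPKM in trNK-V and 665 and 461 in trNK-D (log2 fold change 1.20 ± 0.21, adjusted p = 0.0911), and Nkg7, a granule membrane protein and the most abundant member, at 7267 and 6454 RPKM in trNK-V and 6606 and 4480.0 in trNK-D. Of 28 genes listed for granzymes, perforin and granule release, 25 were tested, 2 of them through trNK-T alone. The 25 include Ctsg, which with 0 counts in both subsets can show no difference. Of the 25, 2 were higher and 0 lower. Both trNK-D libraries lay above trNK-V for 11 of the 25, 44.0%, beside 26.8% of all tested genes, and below for 2, 8.0% beside 27.0%. Their median log2 fold change was 0.40, beside 0.01 over all tested genes, and 0.19 without trNK-D replicate 2 and 0.16 without trNK-D replicate 1.

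**Figure D2:**
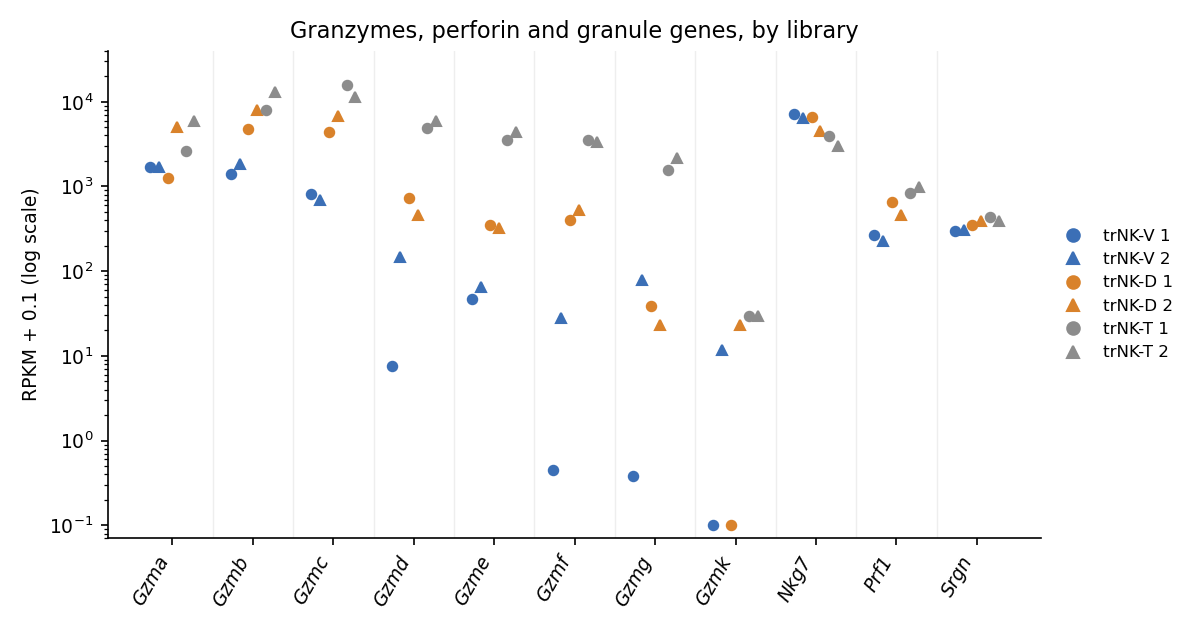
RPKM + 0.1 on a log scale in each library for granzymes, perforin, serglycin (Srgn) and Nkg7, coloured by subset with the replicate as the marker. Gzmc and Gzme are higher in both trNK-D libraries than in trNK-V, whereas Gzmd, Gzmf and Gzmg differ widely between the trNK-V replicates.

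Osteopontin was among the highest transcripts of trNK-D. Spp1 (chr5:104435118-104441050), a secreted phosphoprotein of matrix and cytokine function, was at 1185 and 903 RPKM in trNK-V, 5539 and 4413 in trNK-D and 10388 and 12936 in trNK-T, rising 4.8-fold (log2 fold change 2.26 ± 0.20, edgeR adjusted p = 0.0217). A predicted gene on the same strand within it, Gm42793, held 1702 counts beside 383928 of Spp1. Of 31 listed secreted factors, 8 were tested, 1 of them, Ccl1, through trNK-T alone, and Spp1 alone passed the test. Ccl5 was at 2530.4 and 4318 RPKM in trNK-V and 1976 and 489.7 in trNK-D, and Xcl1, a chemokine that draws dendritic cells, at 1732 and 1699 RPKM in trNK-V and 1079.5 and 903 in trNK-D (log2 fold change -0.78 ± 0.16, adjusted p = 0.104). Ifng, the main NK cell cytokine, was at 47.5 and 94.7 RPKM in trNK-V and 41.3 and 35 in trNK-D. Ccl1 had 0 counts in both trNK-V libraries and stood at 7.01 and 50.8 RPKM in trNK-D, with 345 and 2369 counts, and did not pass the test (adjusted p = 0.097). The median of the 8 was -0.84, and -0.31 without trNK-V replicate 2 and -0.52 without trNK-D replicate 2.

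Zbtb32 (chr7:30589681-30598909), a zinc finger repressor that activated lymphocytes express, gave the lowest p of all tested genes. It had 2 counts in each trNK-V library, 715 and 1036 in trNK-D and 2786 and 2558 in trNK-T, which is 0.055 and 0.0604 RPKM in trNK-V, 14.6 and 22.3 in trNK-D and 78.4 and 91.5 in trNK-T. Its level in trNK-V thus rested on single reads, and it entered the test through trNK-D and trNK-T. The ratio of counts between the subsets, each over its scaled totals of the tested genes, was 321 with a 95% counting interval from 125 to 1180.4 (exact binomial, counting error only), and the edgeR adjusted p was 0.00162. Of the 15 alternative fits only that without trNK-V replicate 1 left Zbtb32 uncalled, at an adjusted p of 0.0578.

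Anxa3 (chr5:96793339-96845966), an annexin that binds membranes in the presence of calcium, had 0 counts in both trNK-V libraries, 116 and 75 in trNK-D and 773 and 765 in trNK-T. At 1.53 and 1.05 RPKM it was low in trNK-D and at least 23.1-fold higher than the floor of 3 counts per library in trNK-V (edgeR adjusted p = 0.0246). It entered the test through its level of 14.1 and 17.7 RPKM in trNK-T. Of 26 listed genes of matrix and vessel remodelling, 7 were tested, 1 of them through trNK-T alone, and Anxa3 alone passed. All 7 had a positive log2 fold change, beside 2362 of all 4682 tested genes. Both trNK-D libraries lay above trNK-V for 4 (57.1%, beside 26.8% of all tested genes), below for 0 (beside 27.0%), and 3 overlapped. The median was 0.67, and 0.57 without trNK-D replicate 2. Lgals1 and Lgals3, galectins that bind sugars on cells and matrix, were measured in both subsets, Lgals1 at 1540.3 and 1334 RPKM in trNK-V and 1982 and 2563 in trNK-D and Lgals3 at 185 and 118 RPKM in trNK-V and 540.5 and 433 in trNK-D. Lgals3 had a log2 fold change of 1.70 ± 0.25 (adjusted p = 0.0555). Anxa2 was at 571 and 500.0 RPKM in trNK-V and 614 and 549 in trNK-D.

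Mt1 (chr8:94179082-94180327), a metallothionein that binds zinc and copper, was at 16 and 23.7 RPKM in trNK-V, 357 and 240.5 in trNK-D and 970.3 and 481 in trNK-T. The subsets did not overlap. Its log2 fold change was 3.92 ± 0.42 (edgeR adjusted p = 0.0246), a 15.2-fold rise. Mt2, its neighbour, had 1 count in each trNK-V library and 57 and 28 in trNK-D, below the RPKM that the test asked for. Of 22 listed metallothioneins and targets of the oxidative stress factor NRF2, 11 were tested, 1 of them through trNK-T alone. Mt1 alone passed, and the median was 0.46, and 0.36 without trNK-D replicate 2. The iron store subunits Fth1 and Ftl1 were measured in both subsets, Fth1 at 2133 and 2059 RPKM in trNK-V and 2093 and 1811 in trNK-D and Ftl1 at 652 and 794 RPKM in trNK-V and 663 and 764 in trNK-D, and Txn1 (thioredoxin) at 297 and 263 RPKM in trNK-V and 389 and 471 in trNK-D. Glrx (chr13:75839868-75850154), a glutaredoxin that reduces protein disulfides with glutathione, was at 31.8 and 28 RPKM in trNK-V, 75.3 and 65 in trNK-D and 75.9 and 69 in trNK-T. It rose 2.36-fold (1.24 ± 0.16 on the log2 scale, adjusted p = 0.0379).

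Capg (chr6:72544391-72562983), which caps the ends of actin filaments, was at 120.5 and 100.1 RPKM in trNK-V, 334 and 282 in trNK-D and 321 and 274 in trNK-T. Like Glrx, it stood at the level of trNK-T in trNK-D. It rose 2.81-fold (log2 fold change 1.49 ± 0.18, edgeR adjusted p = 0.0313). P2ry14 (chr3:59113855-59153618), a G protein-coupled receptor for UDP-glucose, was at 3.5 and 3.05 RPKM in trNK-V, 12.9 and 13 in trNK-D and 8.28 and 6.41 in trNK-T. It passed the filter on low values through trNK-D alone, the subset in which it was highest, so its difference is not independent of the filter. Its log2 fold change over trNK-V was 2.00 ± 0.20 (adjusted p = 0.0246). Med12l on the opposite strand overlaps it, with 933 counts beside 6875, and whether the counting used strand is not given in the sources used here.

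The other 3 genes that rose had low or moderate levels. AA467197 (chr2:122636986-122641191), a relative of the respiratory chain subunit Ndufa4, was at 9.86 and 16.6 RPKM in trNK-V, 68.5 and 91.8 in trNK-D and 168 and 160.1 in trNK-T (log2 fold change 2.61 ± 0.30, edgeR adjusted p = 0.0307). It entered the test through trNK-D and trNK-T. Dixdc1 (chr9:50662752-50739517), a DIX domain protein of Wnt signalling, was at 1.23 and 1.56 RPKM in trNK-V, 6.26 and 9.29 in trNK-D and 20.3 and 19.6 in trNK-T (log2 fold change 2.49 ± 0.26, adjusted p = 0.0246). It entered the test through trNK-T alone, where it was highest. Epdr1 (chr13:19591706-19619927), an ependymin-related protein, was at 16.2 and 13.6 RPKM in trNK-V, 40.2 and 47.7 in trNK-D and 61.1 and 57.9 in trNK-T (log2 fold change 1.58 ± 0.18, adjusted p = 0.0307). In these genes the trNK-D level lay at 64.8% to 78.7% of the log2 difference between trNK-V and trNK-T, a range that includes Dixdc1 and its entry through trNK-T.

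The 3 genes that fell did so in steps from trNK-V to trNK-T. Klrc1 (chr6:129666015-129678973) encodes NKG2A, the inhibitory partner of CD94 and receptor for the non-classical MHC molecule Qa-1. It was at 185 and 210.1 RPKM in trNK-V, 70.5 and 69.8 in trNK-D and 16.1 and 12.9 in trNK-T, 2.8-fold lower in trNK-D than in trNK-V (log2 fold change -1.48 ± 0.17, edgeR adjusted p = 0.0307). Klrc2 (chr6:129647496-129660689) encodes NKG2C, the activating partner of CD94. It was at 42.4 and 47.3 RPKM in trNK-V, 11.5 and 15.7 in trNK-D and 2.32 and 2.81 in trNK-T, 3.27-fold lower (log2 fold change -1.71 ± 0.22, adjusted p = 0.0379). The reading frames of Klrc2 and Klrc3 are 95.3% identical and those of Klrc1 and Klrc2 83.1%, so the Klrc2 value may hold reads of Klrc3. Fam189b (chr3:89183143-89189295), a membrane protein, was at 63.4 and 63.4 RPKM in trNK-V, 23.8 and 17 in trNK-D and 5.42 and 5.15 in trNK-T (log2 fold change -1.63 ± 0.20, adjusted p = 0.0313).

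**Figure D3:**
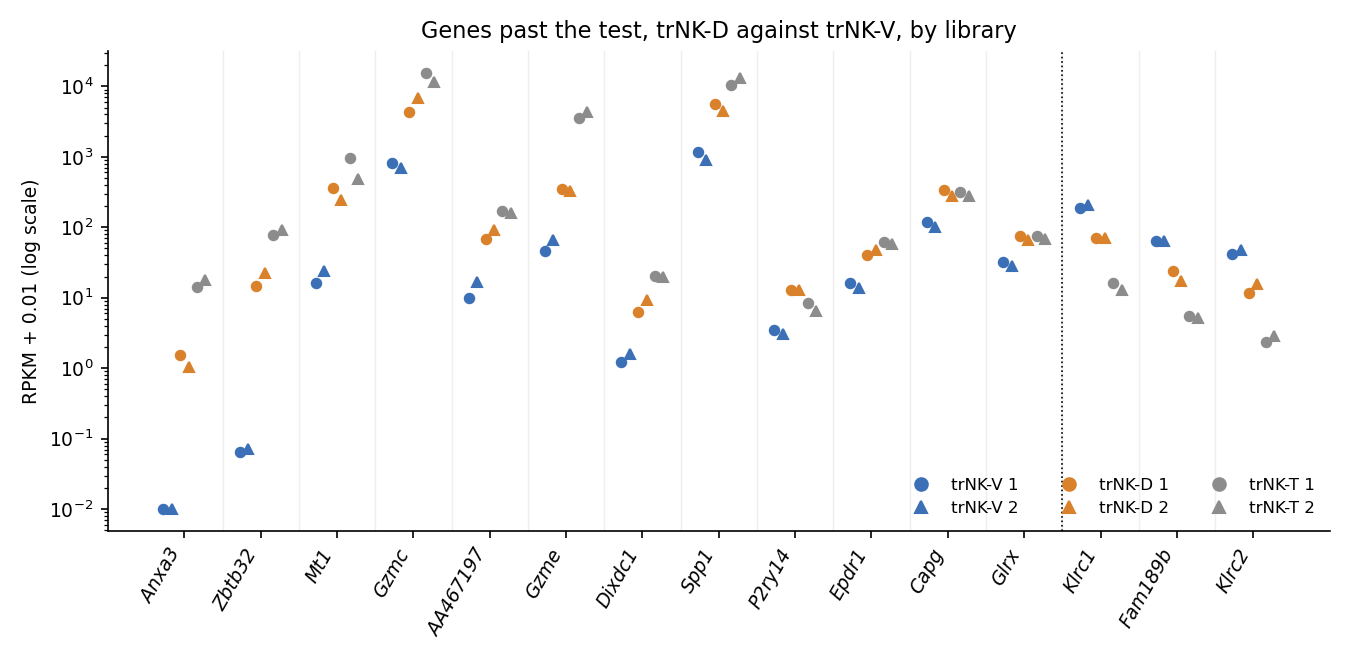
RPKM + 0.01 on a log scale in each of the 6 libraries for the 15 genes that passed the test between trNK-D and trNK-V, coloured by subset with the replicate as the marker. For 12 genes both trNK-D libraries lie above both trNK-V libraries and for 3 below, and P2ry14 is highest in trNK-D. Zbtb32, AA467197, Anxa3, Dixdc1 and P2ry14 passed the filter on low values only through trNK-D or trNK-T.

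Of 37 listed receptors and adaptors of NK cells, 34 were tested, and 2, Klrc1 and Klrc2, passed, both lower. Both trNK-D libraries lay below trNK-V for 19 of the 34, 55.9%, beside 27.0% of all tested genes, and above for 4, 11.8% beside 26.8%, with a median log2 fold change of -0.56, which was -0.32 without trNK-V replicate 2 and -0.40 without trNK-D replicate 2. Klrd1, which encodes the shared partner CD94, was at 721 and 834 RPKM in trNK-V and 341 and 583 in trNK-D. Klrk1 (NKG2D), an activating receptor for stress ligands, was at 239.6 and 281 RPKM in trNK-V and 89.5 and 118 in trNK-D (log2 fold change -1.31 ± 0.25, adjusted p = 0.097). The adaptors Tyrobp (DAP12) and Fcer1g were measured in both subsets, Tyrobp at 5215 and 5584 RPKM in trNK-V and 7074 and 4886 in trNK-D and Fcer1g at 3241 and 2976 RPKM in trNK-V and 4339.8 and 3313 in trNK-D, and Klra7 (Ly49G) at 1050.3 and 833 RPKM in trNK-V and 969 and 798 in trNK-D. Genes of conventional NK cells and ILC1, the related cells that the CD49a and CXCR6 gates were to leave out, had lower sums in trNK-D, beside the negative medians of this list and of those of homing genes and transcription factors. The 13 listed summed to 1581 and 2596 RPKM in trNK-V, 949 and 963 in trNK-D and 334 and 376 in trNK-T, mostly from Klra8 (Ly49H), at 769 and 1256 RPKM in trNK-V and 585 and 468 in trNK-D, and Klra4 (Ly49D), at 684 and 1129.6 RPKM in trNK-V and 316 and 439 in trNK-D, which the list of NK cell receptors also holds. Of the 13, 4 were tested, 1 of them through trNK-T alone, and none passed. Of these 4, 3 lay below trNK-V (75.0%, beside 27.0% of all tested genes) and the median was -1.09. Il7r was at 0 in every trNK-V and trNK-D library. The part of these transcripts in the other lists was not tested. Ly49 genes are closely related copies, whose sequences were not compared here, so their single levels are uncertain. Klrg1, an inhibitory receptor of mature NK cells, went the other way, from 185 and 225 RPKM to 449 and 483, without overlap (log2 fold change 1.20 ± 0.17, adjusted p = 0.0555).

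Of 20 listed costimulatory and checkpoint receptors, 14 were tested, 1 of them through trNK-T alone, and none passed. Of the 14, 6 had trNK-D above (42.9%, beside 26.8% of all tested genes) and 4 below trNK-V (28.6% beside 27.0%). Their median was 0.18, and 0.14 without trNK-D replicate 2, 0.35 without trNK-D replicate 1 and 0.40 without trNK-V replicate 2. Cd27, a costimulatory receptor lost as NK cells mature, was at 77 and 56.8 RPKM in trNK-V, 24.6 and 13.3 in trNK-D and 4.96 and 2.9 in trNK-T (log2 fold change -1.81 ± 0.38, adjusted p = 0.115). Cd7 was at 2104 and 2628 RPKM in trNK-V and 1059.8 and 823 in trNK-D, and Tnfrsf18 (GITR) at 148 and 145 RPKM in trNK-V and 128 and 96.7 in trNK-D. Among 13 tested cytokine receptors none passed, and their median was -0.28, but -0.05 without trNK-D replicate 2 and -0.61 without trNK-D replicate 1. The interleukin-2 and interleukin-15 receptor chains Il2rg and Il2rb were measured in both subsets, Il2rg at 427 and 520.0 RPKM in trNK-V and 566 and 375 in trNK-D and Il2rb at 433 and 398 RPKM in trNK-V and 369 and 289.8 in trNK-D, and Ifngr1 at 369 and 344 RPKM in trNK-V and 349 and 303 in trNK-D. Il10rb was at 44.6 and 34.3 RPKM in trNK-V and 38.2 and 19.7 in trNK-D, and Il21r at 49 and 53.2 RPKM in trNK-V and 50.8 and 32.8 in trNK-D, where the subsets overlapped. Il2ra was at 0.0681 and 1.48 RPKM in trNK-V and 8.96 and 5.84 in trNK-D.

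Of 32 genes of adhesion, residency and homing, 17 were tested, 1 of them through trNK-T alone, and none passed. Of the 17, 7 lay below (41.2%, beside 27.0% of all tested genes) and 2 above trNK-V (11.8% beside 26.8%). Their median was -0.28, and -0.12 without trNK-D replicate 2. Cxcr3, a chemokine receptor that responds to interferon-induced chemokines, was at 147 and 122 RPKM in trNK-V, 54.2 and 39.7 in trNK-D and 5.44 and 3.7 in trNK-T (log2 fold change -1.51 ± 0.24, adjusted p = 0.0783), and was picked after its values were seen. Rgs1, which dampens chemokine signals, was at 307 and 342 RPKM in trNK-V and 464 and 342 in trNK-D, Itgb1 at 167 and 208 RPKM in trNK-V and 173 and 139 in trNK-D and Ccr2 at 257 and 269 RPKM in trNK-V and 234 and 172 in trNK-D. Itgam (CD11b) was at 3.4 and 6.48 RPKM in trNK-V and 6.97 and 1.96 in trNK-D.

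Transcription factors of NK cell identity did not pass the test. Among 40 listed lineage and effector factors, which do not include Zbtb32, 19 were tested, 1 of them, Epas1, through trNK-T alone. Of the 19, 10 lay below trNK-V in both libraries (52.6%, beside 27.0% of all tested genes) and 3 above (15.8% beside 26.8%). Epas1 was among the 3 above. The median was -0.57, and -0.32 without trNK-V replicate 2 and -0.36 without trNK-D replicate 2. Eomes had a log2 fold change of -0.51 ± 0.16 (adjusted p = 0.169), and Tbx21 (T-bet) was at 62.3 and 56.8 RPKM in trNK-V and 45.5 and 32.8 in trNK-D. Tcf7, a factor of immature and long-lived lymphocytes, was at 36 and 53.7 RPKM in trNK-V, 14.6 and 11.8 in trNK-D and 3.01 and 0.321 in trNK-T (log2 fold change -1.76 ± 0.75, adjusted p = 0.252). Its levels in trNK-D lay below trNK-V and above trNK-T. Tox, needed for NK cell development, was at 23.2 and 26.9 RPKM in trNK-V and 15.5 and 7.65 in trNK-D, Gata3 at 18.7 and 26 RPKM in trNK-V and 17.5 and 12.4 in trNK-D, and Id2, which holds innate lymphocytes on course, at 971 and 1060.5 RPKM in trNK-V and 1019 and 785 in trNK-D. Runx3 was at 39 and 38.8 RPKM in trNK-V and 34.9 and 41.2 in trNK-D, and Nfil3, which early NK cells need, at 106 and 15.9 RPKM in trNK-V and 48 and 25 in trNK-D, where the trNK-V libraries enclosed those of trNK-D. The homeodomain protein Hopx was at 199 and 166 RPKM in trNK-V and 180.3 and 146 in trNK-D, Bhlhe40 at 154 and 187 RPKM in trNK-V and 116 and 98.1 in trNK-D, and Prdm1 (Blimp-1) at 1.63 and 2.11 RPKM in trNK-V and 2.94 and 4.93 in trNK-D.

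Of 18 genes of the STAT and JAK path and its feedback, 10 were tested and none passed. Of the 10, 6 lay below trNK-V (60%, beside 27.0% of all tested genes) and 1 above (10.0% beside 26.8%). The median was -0.63, and -0.54 without trNK-D replicate 2. Jak1 was at 127 and 126 RPKM in trNK-V and 86.1 and 66.8 in trNK-D, the kinase Pim2 at 76.8 and 104 RPKM in trNK-V and 55.1 and 32.8 in trNK-D, and Stat4, which carries interleukin-12 signals, at 53.2 and 72.3 RPKM in trNK-V and 36.2 and 28.5 in trNK-D.

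Immediate early genes, which cells transcribe within minutes of a signal, did not include a called gene. Of 27 listed, 20 were tested, 1 of them through trNK-T alone, and no gene passed the test. Both trNK-D libraries lay below trNK-V for 15, 75.0%, beside 27.0% of all tested genes. The lowest edgeR adjusted p was 0.0546, of Ier3, the 1 member with trNK-D above trNK-V (5.0%, beside 26.8% of all tested genes). Ier3 had 0 counts in both trNK-V libraries, and trNK-D was at least 48.3-fold above the floor of 3 counts per library. The median log2 fold change of the 20 was -1.0, and -1.29 to -0.81 over the 15 alternative fits, with -0.81 without trNK-D replicate 2. The summed level of the 20 was 2455 and 3903 RPKM in trNK-V, 1638 and 1199 in trNK-D and 978 and 339 in trNK-T. Junb was at 694 and 974 RPKM in trNK-V and 365 and 210.1 in trNK-D, Nfkbia, the inhibitor of NF-kB, at 192 and 496 RPKM in trNK-V and 183 and 168 in trNK-D, and Ier2 at 219 and 457 RPKM in trNK-V and 147 and 147 in trNK-D. Jun had a log2 fold change of -1.88 ± 0.35 (adjusted p = 0.097). Among 14 heat shock and chaperone genes, 12 were tested, 4 lay below (33.3%, beside 27.0% of all tested genes) and 2 above (16.7% beside 26.8%), and the median was -0.17, but 0.05 without trNK-V replicate 2, -0.32 without trNK-V replicate 1, -0.23 without trNK-D replicate 2 and -0.01 without trNK-D replicate 1. Hspa8 was at 635 and 961 RPKM in trNK-V and 686 and 838 in trNK-D, Hsp90ab1 at 551 and 608 RPKM in trNK-V and 640.0 and 709 in trNK-D, and the inducible Hspa1b at 169.8 and 628 RPKM in trNK-V and 49.1 and 95.4 in trNK-D.

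Genes of cell division differed between the trNK-D libraries more than between the subsets. Of 36 mitosis genes, 21 were tested, 8 of them through trNK-T alone, and none passed. The median of the list was 0.78, but -0.78 without trNK-D replicate 2 and 1.51 without trNK-D replicate 1. The summed level was 765 and 806.3 RPKM in trNK-V, 533 in trNK-D replicate 1 and 1742 in replicate 2, and 1111 and 1645 in trNK-T. Mki67, the marker of cycling cells, was at 5.62 and 6.14 RPKM in trNK-V and 2.83 and 13.3 in trNK-D, and of the abundant members Hmgb2 was at 249.7 and 210.0 in trNK-V and 135 and 379.8 in trNK-D, Stmn1 at 95.1 and 145 in trNK-V and 96.7 and 270.3 in trNK-D, and Cks1b at 66.2 and 81.7 in trNK-V and 87.5 and 208 in trNK-D. Replicate 2 of trNK-D was the higher for each of these genes. DNA replication genes were less split: of 47 listed, 30 were tested, 4 of them through trNK-T alone, and none passed. Of the 30, 13 lay above trNK-V (43.3%, beside 26.8% of all tested genes) and 0 below (beside 27.0%). Among those above, Gins1 entered the test through trNK-D and trNK-T. The median was 0.56, but 0.10 without trNK-D replicate 2 and 0.87 without replicate 1. Pcna, the sliding clamp, was at 69.9 and 83.5 RPKM in trNK-V and 74.5 and 111 in trNK-D, the helicase subunit Mcm6 at 60.5 and 42.2 RPKM in trNK-V and 62.1 and 87.7 in trNK-D, and Gins4 at 49 and 44.7 RPKM in trNK-V and 63.7 and 65.5 in trNK-D.

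No gene of protein folding and secretion passed the test. Of 34 genes of endoplasmic reticulum stress and secretion, 27 were tested (lowest edgeR adjusted p = 0.097). Both trNK-D libraries were above trNK-V for 20 (74.1%, beside 26.8% of all tested genes) and below for 2 (7.41% beside 27.0%). Among those above, Edem1 did not exceed 10 RPKM in both trNK-V libraries and entered the test through trNK-D and trNK-T. The median was 0.51, and 0.29 without trNK-D replicate 2, the library with the plasma cell transcripts. Plasma cells use many of the same genes, and the part of their transcripts in this result was not tested. The sum of the list was 2498 and 2422 RPKM in trNK-V, 3258 and 3808 in trNK-D and 5539 and 6920 in trNK-T. The disulfide isomerase Pdia3 was at 331 and 267 RPKM in trNK-V and 465 and 477 in trNK-D, the chaperone Hspa5 (BiP) at 251 and 299.5 RPKM in trNK-V and 352 and 425 in trNK-D, and its cofactor Sdf2l1 at 189.7 and 136 RPKM in trNK-V and 292 and 346 in trNK-D.

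The medians of the metabolic lists lay above 0, without a called gene, except that of amino acid supply without trNK-D replicate 2. All 43 respiratory chain genes were tested, 29 lay above (67.4%, beside 26.8% of all tested genes) and 0 below trNK-V (beside 27.0%), and the median was 0.24, and 0.17 without trNK-D replicate 2. Of the most abundant subunits of cytochrome c oxidase, Cox8a was at 1027 and 899 RPKM in trNK-V and 1092 and 1003 in trNK-D, Cox6a1 at 601 and 525 RPKM in trNK-V and 715 and 751 in trNK-D, and Cox6b1 at 502 and 538 RPKM in trNK-V and 647 and 651 in trNK-D. Of 16 tested glycolysis and hypoxia genes, 2 entered the test through trNK-T alone. Of the 16, 10 were above (62.5%, beside 26.8% of all tested genes) and 1 below (6.25% beside 27.0%). Among those above, Ero1l entered the test through trNK-D and trNK-T. Their median was 0.49, and 0.21 without trNK-D replicate 2. Ldha, lactate dehydrogenase, was at 354 and 292 RPKM in trNK-V and 372 and 521 in trNK-D, Eno1 (enolase) at 274 and 190.2 RPKM in trNK-V and 273 and 424 in trNK-D, and Mif at 347 and 275 RPKM in trNK-V and 386 and 488 in trNK-D.

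Ribosome biogenesis and Myc gave 16 above (64.0%, beside 26.8% of all tested genes) and 1 below (4.0% beside 27.0%) among 25 tested, with a median of 0.52 and 0.30 without trNK-D replicate 2. The nucleolar protein Npm1 was at 265 and 217 RPKM in trNK-V and 273 and 411 in trNK-D, Nhp2 at 136 and 130.2 RPKM in trNK-V and 199.6 and 198 in trNK-D, and Myc at 112 and 98.5 RPKM in trNK-V and 58.6 and 80.0 in trNK-D. Of 16 tested genes of cholesterol and fatty acid synthesis, 6 of them through trNK-T alone, 11 were above (68.8%, beside 26.8% of all tested genes) and 1 below (6.25% beside 27.0%). The median was 0.73, and 0.60 without trNK-D replicate 2, 0.42 without trNK-V replicate 2 and 1.03 without trNK-V replicate 1. The sterol isomerase Ebp was at 50.5 and 48.6 RPKM in trNK-V and 57.2 and 54.8 in trNK-D, Acly, which makes cytosolic acetyl-CoA, at 30.3 and 29.8 RPKM in trNK-V and 22.6 and 22.4 in trNK-D, and Sc5d, a sterol desaturase, at 12.1 and 10.0 RPKM in trNK-V and 19.7 and 22.7 in trNK-D. For amino acid supply, 12 genes were tested, 2 of them through trNK-T alone. Of the 12, 4 were above (33.3%, beside 26.8% of all tested genes) and 3 below (25.0% beside 27.0%). The median was 0.36, but -0.04 without trNK-D replicate 2, 0.85 without trNK-D replicate 1 and 0.73 without trNK-V replicate 1. The amino acid transporters Slc3a2 and Slc1a5 were measured in both subsets, Slc3a2 at 101 and 80.0 RPKM in trNK-V and 85.5 and 85.9 in trNK-D and Slc1a5 at 102 and 85.9 RPKM in trNK-V and 78.4 and 69.9 in trNK-D, and Phgdh, of serine synthesis, at 62.5 and 44 RPKM in trNK-V and 65.9 and 100.1 in trNK-D.

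Interferon-stimulated genes and those of cell death had list medians whose sign depended on the fit. Of 20 tested interferon-stimulated genes, 1 entered the test through trNK-T alone. Of the 20, 4 were above and 4 below, 20.0% each way beside 26.8% and 27.0% of all tested genes. The median was -0.02, and 0.16 without trNK-D replicate 2, -0.30 without trNK-D replicate 1 and 0.22 without trNK-V replicate 1. Ifitm2 was at 155 and 68.3 RPKM in trNK-V and 310.0 and 1084 in trNK-D, Ifitm3 at 233 and 113 RPKM in trNK-V and 276 and 261 in trNK-D, and Ifi27 at 152 and 189 RPKM in trNK-V and 213 and 101 in trNK-D. Of 16 tested genes of the BCL2 family, caspases and death receptors, 3 were above (18.8%) and 5 below (31.2%), near those shares of all genes, with a median of -0.05, and -0.31 without trNK-D replicate 2, -0.25 without trNK-V replicate 1 and 0.06 at the highest of the 15 alternative fits. Bid was at 53.8 and 36.7 RPKM in trNK-V and 72.2 and 45 in trNK-D, and Bcl2, which guards survival, at 72.8 and 66 RPKM in trNK-V and 56.1 and 38.4 in trNK-D. Casp1 was at 68.7 and 116 RPKM in trNK-V and 75.1 and 56 in trNK-D, Casp8 at 72.2 and 75.8 RPKM in trNK-V and 80.7 and 64.2 in trNK-D, and Cycs, cytochrome c, at 64.7 and 57.6 RPKM in trNK-V and 86.5 and 107 in trNK-D. MHC class I and antigen processing had 11 below (64.7%, beside 27.0% of all tested genes) and 2 above (11.8% beside 26.8%) among 17 tested, with a median of -0.21, and -0.12 without trNK-D replicate 2. B2m was at 8601 and 8715 RPKM in trNK-V and 10129.5 and 7211 in trNK-D, H2-D1 at 3685 and 3564 RPKM in trNK-V and 3516 and 2713 in trNK-D, and H2-K1 at 1762 and 1819 RPKM in trNK-V and 1528 and 1153 in trNK-D.

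**Figure D4:**
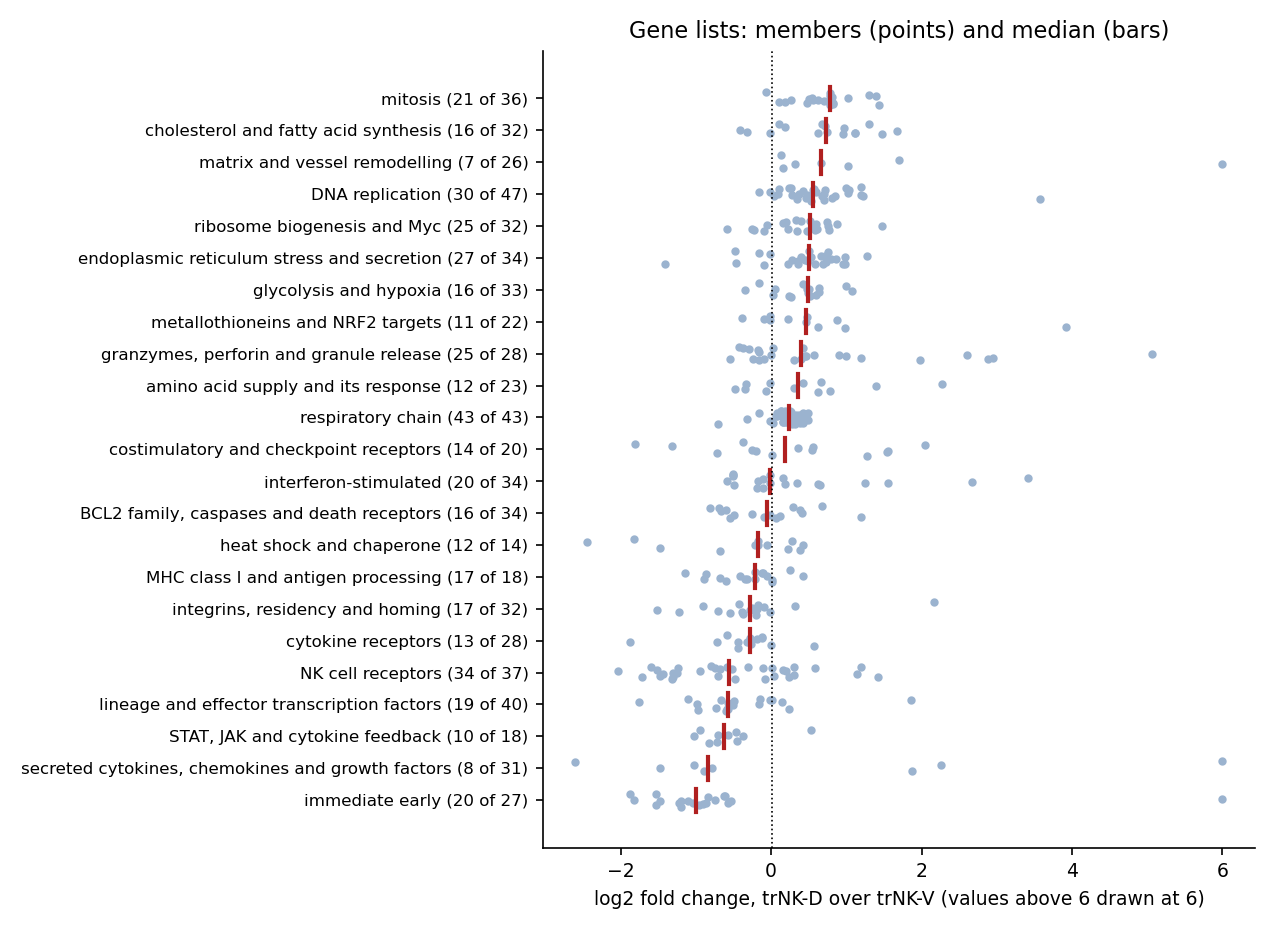
Log2 fold change of trNK-D over trNK-V for the tested members of each gene list (points), values above 6 drawn at 6, with the median of each list as a bar and the median of all tested genes, 0.01, as a dotted line. The immediate early list has the lowest median of the lists drawn, -1.0, and the lists of mitosis, cholesterol synthesis and DNA replication lie above 0, with medians of 0.78 (-0.78 without trNK-D replicate 2), 0.73 and 0.56.

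Among the 24 genes that the study used to trace the course of differentiation, 20 were tested, and Spp1 alone passed. That list was chosen by the study on data of the same cells and is no independent evidence of a direction. It mixes genes that the study described as rising and as falling along that course, so no common direction is given for it.

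A contrast of trNK-D with the mean of trNK-V and trNK-T on the log scale asked which genes departed in trNK-D from the midpoint of the other subsets. A gene can depart from it and still lie between them or at the level of 1 of them. It called 0 of 4682 genes (0%) by edgeR, with 147 higher and 66 lower at an unadjusted p below 0.05, while DESeq2 called 16 higher and 1 lower. The lowest adjusted p, 0.0541, was that of Zbtb32 and Cd74, named after their values were seen. Cd74, the invariant chain of MHC class II, was at 362 and 227 RPKM in trNK-V, 439.5 and 216 in trNK-D and 5.18 and 4.07 in trNK-T, with overlapping levels in trNK-V and trNK-D. Zbtb32 lay between the other subsets. P2ry14 had a log2 difference of 1.41 and an edgeR adjusted p of 0.0682. It passed the filter on low values through trNK-D alone, so this difference is not independent of the filter.

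Transcripts of plasma cells were nearly confined to trNK-D replicate 2. The 20 listed plasma cell genes summed to 354 and 388 RPKM in trNK-V, 372 in trNK-D replicate 1 and 27839 in trNK-D replicate 2, and no more than 347 in trNK-T. Igkc, the kappa light chain, was at 12.2 and 18.3 RPKM in trNK-V and 30.4 and 21084 in trNK-D, Igha, the IgA heavy chain, at 0.996 and 0.507 RPKM in trNK-V and 6.67 and 4530.3 in trNK-D, and Jchain, which joins secreted IgA and IgM, at 1.75 and 2.12 RPKM in trNK-V and 3.46 and 1698 in trNK-D. Mzb1 was at 0 and 18 in trNK-D and Tnfrsf17 (BCMA) at 0 and 6.36, both at 0 in trNK-V. Ighm differed less, at 249 and 298 RPKM in trNK-V and 219 and 238 in trNK-D, and Ighg1 and Ighg2c had no counts in trNK-V or trNK-D. None of the 4 plasma cell genes tested passed. With scaling computed without immunoglobulin, plasma cell and macrophage genes, all 15 calls held. Whether cells were fewer or held less RNA of a type cannot be told apart in bulk libraries.

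The sum of macrophage transcripts differed between the trNK-V libraries, mostly through Lyz2 and Apoe. The 26 listed genes summed to 140 RPKM in trNK-V replicate 1 and 493 in replicate 2, 391 and 504 in trNK-D, and 154 and 98.5 in trNK-T. Lyz2 (lysozyme) was at 19.2 and 269 RPKM in trNK-V, 212 and 303 in trNK-D and 1.97 and 4.61 in trNK-T, and Apoe at 7.88 and 91.3 RPKM in trNK-V and 15.6 and 38.5 in trNK-D. The defining genes were low: C1qa at 1.18 and 0.548 RPKM in trNK-V and 4.02 and 1.61 in trNK-D, Csf1r at 0 and 1.49 RPKM in trNK-V and 1.5 and 3.02 in trNK-D, and Adgre1 (F4/80) at 0 and 0.022 RPKM in trNK-V and 1.22 and 0.816 in trNK-D. C1qc was at 1.24 and 0.738 RPKM in trNK-V and 3.86 and 3.05 in trNK-D. C1qa, C1qc, Csf1r and Adgre1 thus lay higher in both trNK-D libraries than in both trNK-V libraries, whereas C1qb overlapped. These genes were below the RPKM that the test asked for. The lysosomal genes Ctsb, at 71.5 and 93.1 RPKM in trNK-V and 87.7 and 96.4 in trNK-D, and Cd68, at 24.7 and 17.3 RPKM in trNK-V and 31.4 and 35.8 in trNK-D, differed less between libraries. Of the 4 tested none passed. The part of macrophage transcripts in other differences was not tested.

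**Figure D5:**
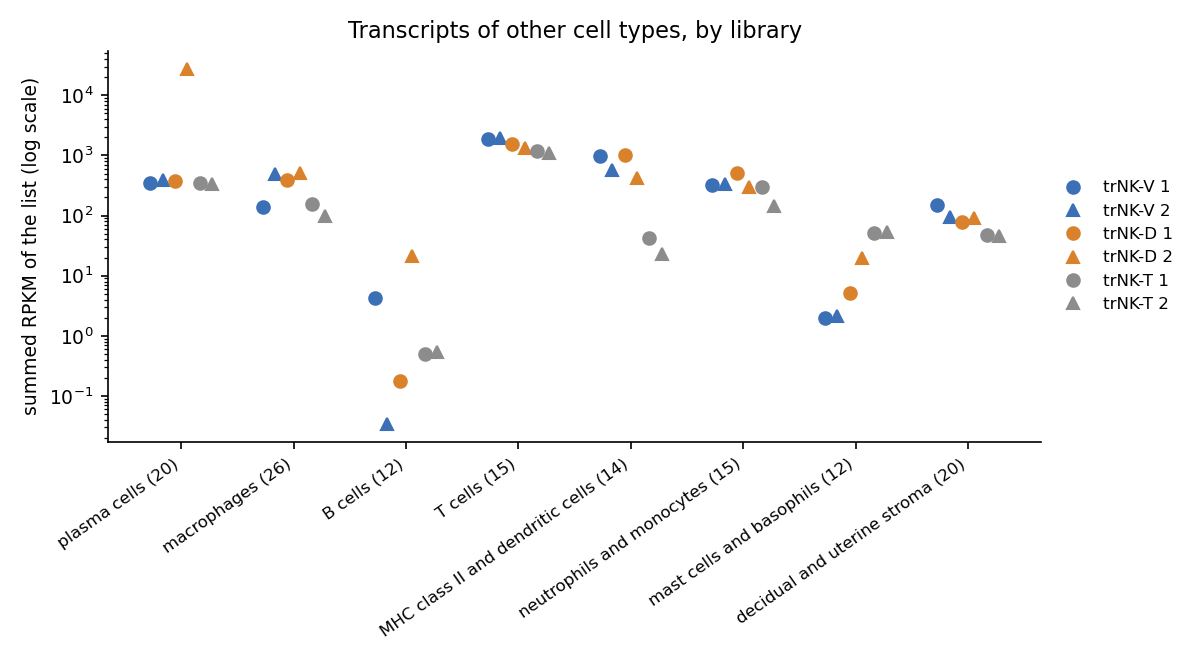
Summed RPKM on a log scale of the listed genes of each other cell type in each library, coloured by subset with the replicate as the marker. Plasma cell transcripts reach 27839 RPKM in trNK-D replicate 2 and stay at or below 388 in the other libraries, and macrophage transcripts are lowest in trNK-V replicate 1 and in trNK-T.

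MHC class II and dendritic cell genes summed to 964 and 575.5 RPKM in trNK-V, 1028 and 421 in trNK-D and 42.9 and 23.1 in trNK-T. Cd209a was at 70.0 and 0 in trNK-V and 147 and 0 in trNK-D, present in replicate 1 of each and absent from replicate 2, and the dendritic cell markers Clec9a and Siglech were at 0. B cell genes summed to at most 21.2 RPKM, with Ms4a1, Pax5, Blk and Fcer2a at 0. T cell genes summed to 1884 and 1913 RPKM in trNK-V and 1551 and 1338 in trNK-D, mostly from the constant regions Trbc1, at 1244 and 1266 in trNK-V and 1105 and 861 in trNK-D, and Trbc2, at 367 and 411 in trNK-V and 339 and 300.2 in trNK-D. Of 15 listed, 8 were tested and none passed, with trNK-D below trNK-V for 6, 75.0%, beside 27.0% of all tested genes, and a median of -0.56. Of the CD3 chains, Cd3g was at 81.6 and 79 RPKM in trNK-V and 30.7 and 43 in trNK-D (adjusted p = 0.104), Cd3d at 50.1 and 44.9 RPKM in trNK-V and 10.4 and 33.9 in trNK-D, and Cd3e at 0 and 1.26 RPKM in trNK-V and 0.625 and 0 in trNK-D. Cd8b1 was at 0 and 14.8 RPKM in trNK-V and 0.162 and 0 in trNK-D. The sorting gate left out lineage-positive cells, with CD3 and CD5 among the lineage markers. The part of T cell transcripts in other differences was not tested. Neutrophil and monocyte genes summed to 327 and 336 in trNK-V and 516 and 303 in trNK-D, mostly from Ccr2 in trNK-V, at 257 and 269 there and 234 and 172 in trNK-D. Without Ccr2, left out after its values were seen, the sum was 70.1 and 67 RPKM in trNK-V, 283 and 131 in trNK-D and 150 and 54.4 in trNK-T. Of 15 listed, 3 were tested and none passed, with a median of 1.42. Ly6c2 was at 70.1 and 62.6 RPKM in trNK-V and 237 and 116 in trNK-D (adjusted p = 0.206), and Il1b, an inflammatory cytokine, at 0 and 3.92 RPKM in trNK-V, 44.1 and 14.2 in trNK-D and 1.04 and 0 in trNK-T (adjusted p = 0.278), both without overlap between trNK-D and trNK-V. Il1b passed the filter on low values through trNK-D alone. The neutrophil genes S100a9, Retnlg, Elane and Mpo were at 0 in every trNK-V and trNK-D library. The lineage gate also held Gr-1, which marks neutrophils and some monocytes. The part of these transcripts in other differences was not tested. Mast cell and basophil genes summed to 1.98 and 2.16 in trNK-V and 5.23 and 19.5 in trNK-D, and the basophil protease Mcpt8 was at 2.99 and 12 in trNK-D, 39.7 and 45.4 in trNK-T and 0 in trNK-V (adjusted p = 0.0783). Mcpt8 entered the test through trNK-T alone, where it was highest. Cpa3 was at 0 in trNK-V and 1.74 and 3.65 RPKM in trNK-D. Fcer1a, Ms4a2, Mcpt1, Mcpt2, Mcpt4, Tpsb2 and Tpsab1 were at 0 in every trNK-V and trNK-D library. Stroma, endothelium and epithelium stayed at or below 152.5 RPKM in sum, trophoblast at or below 0.466 and erythrocytes at or below 2.80. The defining stromal genes Col1a1, Col1a2, Col3a1 and Dcn were highest in trNK-V replicate 1. Col1a1 was at 17.0 and 1.09 RPKM in trNK-V and 0.828 and 0.00774 in trNK-D. Col3a1 was at 6.83 and 0.00726 in trNK-V and 0.387 and 0.129 in trNK-D. Dcn was at 13.0 and 1.66 in trNK-V and 1.45 and 0.94 in trNK-D. The part of stromal transcripts in other differences was not tested. Of the 4 tested genes of conventional NK cells and ILC1, Ltb, a lymphotoxin chain, was at 95.6 and 136 RPKM in trNK-V, 17.4 and 6.84 in trNK-D and 1.01 and 1.33 in trNK-T (adjusted p = 0.0555).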

How the data were processed

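Cells were sorted into lysis buffer, amplified with the SMART-Seq HT kit and sequenced from both ends on an Illumina instrument. The values used are counts of reads per gene, deposited by the authors as 1 file per library. The submitters' processing notes name mm10, HISAT2 2.1.0 and featureCounts of Subread, whereas the methods name RSEM. All values were whole numbers. The strand setting is not given in the sources used here. Of 54446 gene identifiers, 54409 matched a symbol of GENCODE vM21.

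RPKM was computed from the counts, the library total and the exon length. Tested genes exceeded 10 RPKM in each library of at least 1 sorted subset, after the filter in the methods. The counts of genes that entered through trNK-T alone leave out genes that entered through trNK-D, alone or with trNK-T. They were tested with the edgeR 4.0.16 quasi-likelihood test (R 4.3.3, TMM scaling, Benjamini-Hochberg adjustment) in 1 fit of the 6 sorted libraries without covariates. The common biological coefficient of variation was 0.248. Calls needed a fold change over 2 with an adjusted p under 0.05. The methods name limma without its input, and limma-voom (limma 3.58.1) and DESeq2 1.42.0 were alternatives, beside other scalings, filters, call rules, the replicate number as a block and fits that left out a library. The fit was also run on simulated counts as a check of the code only, which bears on none of the results. Promoter windows came from RefSeq (GRCm38.p6), and reading frames were aligned with Biopython 1.88. Library totals of 11862089 to 20786471 counts bound the precision of low genes, and counting intervals and floors cover counting error only.

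Named genes were the sorting markers, the study's trajectory genes, up to 15 called genes in each direction whose libraries do not overlap, the called members and the 3 most abundant members of each list, and the defining genes of other cell types. Genes outside this rule, such as Lgals3, Klrk1, Gzmd, Gzmf, Gzmg, Klrd1, Cxcr3, Ccl1, Jun, Mki67, Mt2, Mcpt8 and Cd74, were picked after their values were seen. The members and lists were chosen with earlier results of these data known. The other 36 samples of the series were not used. A few genes that the rule names are not reported here.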

Additional observations from a re-analysis of the deposited data

How the results depend on the processing

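Between trNK-D and trNK-V, 12 genes were higher and 3 lower. DESeq2 size factors, scaling without immunoglobulin, plasma cell and macrophage genes, a limit of 1.5-fold and no limit on the fold change gave the same counts. The filterByExpr filter gave 1 higher and 0 lower of 14343 genes tested (1095 and 669 at an unadjusted p below 0.05), RPKM above 1 gave 10 and 0 of 11303 (923 and 698 unadjusted), and no filter gave 339 and 132 of 26242. DESeq2 called 95 and 93, limma-voom 17 and 15, and the fit of only the trNK-D and trNK-V libraries 5 and 0 (343 and 478 unadjusted, edgeR). The replicate block gave 17 and 8. Same-numbered libraries were compared in their deviations from the subset means. The correlation was 0.117 between trNK-V and trNK-D, -0.014 between trNK-V and trNK-T and 0.41 between trNK-D and trNK-T. The main fit had no block, since the sources give no pairing, and these correlations do not settle whether the numbers mark pairs. Cd209a, at 70.0 RPKM in trNK-V and 147 in trNK-D, was present in replicate 1 alone of both subsets. Leaving out 1 library gave 0 to 8 higher and 0 to 1 lower. Where that left 1 library in a subset, it was assumed to vary like the others. Against the mean of trNK-V and trNK-T, 0 genes were called, but 16 higher and 1 lower by DESeq2, 158 and 12 with no filter, 3 and 0 with the replicate block and 0 to 2 higher with 1 library left out. This contrast cannot be formed from the trNK-D and trNK-V libraries only. The cause of these shifts was not tested. The 15 called genes kept their direction in all 15 alternative fits. Of the 133 tested genes named in the text, 22 changed sign in at least 1 alternative fit, none of them called. The log2 fold change with every library kept stands in parentheses. Without trNK-D replicate 1 and without trNK-D replicate 2, in that order, the log2 fold change was -0.24 and 0.22 for B2m (at 0.01), -0.18 and 0.12 for Casp8 (at -0.02), -0.42 and 0.57 for Cd74 (at 0.16), -0.18 and -0.01 for Fth1 (at -0.09), -0.73 and 0.32 for Ifi27 (at -0.11), -0.31 and 0.25 for Il2rg (at 0.00) and -0.12 and 0.38 for Tyrobp (at 0.16). Without trNK-D replicate 2 and without trNK-D replicate 1, in that order, the log2 fold change was -0.44 and 1.58 for Gzma (at 0.90), -0.77 and 0.75 for Hmgb2 (at 0.18), -0.05 and 0.55 for Pcna (at 0.28), -0.16 and 0.11 for Runx3 (at -0.02) and -0.32 and 1.19 for Stmn1 (at 0.63). Without trNK-V replicate 1 and without trNK-V replicate 2, in that order, the log2 fold change was -1.75 and 1.81 for Apoe (at -0.86), -0.02 and 0.39 for Ctsb (at 0.17), -0.15 and 0.15 for Ftl1 (at -0.01), -1.37 and 6.72 for Gzmg (at -0.37), -0.33 and 0.28 for Hspa8 (at -0.06) and -0.06 and 3.76 for Lyz2 (at 0.84). Without trNK-V replicate 2 and without trNK-V replicate 1, in that order, the log2 fold change was -0.27 and 0.11 for Itga1 (at -0.09), -0.23 and 0.08 for Klra7 (at -0.08), -1.53 and 1.20 for Nfil3 (at -0.73) and -0.21 and 0.10 for Slc3a2 (at -0.07). With filterByExpr it was 0.08 for Casp8, 0.01 for Fth1, 0.10 for Ftl1, 0.05 for Hspa8, 0.10 for Il2rg, 0.01 for Itga1, 0.02 for Klra7, 0.09 for Runx3 and 0.04 for Slc3a2. With RPKM above 1 it was 0.07 for Casp8, 0.09 for Ftl1, 0.04 for Hspa8, 0.09 for Il2rg, 0.01 for Klra7, 0.07 for Runx3 and 0.03 for Slc3a2. With no filter it was 0.09 for Casp8, 0.02 for Fth1, 0.11 for Ftl1, 0.07 for Hspa8, 0.11 for Il2rg, 0.02 for Itga1, 0.03 for Klra7, 0.10 for Runx3 and 0.05 for Slc3a2. With limma-voom it was -0.01 for B2m, 2.68 for Gzmg and 0.00 for Hmgb2. With the replicate block it was -0.02 for B2m and 0.51 for Gzmg. Il2rg also crossed 0 with scaling without immunoglobulin, plasma cell and macrophage genes and with only the trNK-D and trNK-V libraries, at 0.00 in both. With 2 libraries per subset, 1 library could decide most calls.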
